A study of Mus musculus with 2 samples.

Results

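Kidneys make NAD from tryptophan as well as from recycled nicotinamide, and the genes described here are the enzymes of these routes together with the methyltransferase gene Inmt. They were chosen by name, with earlier results of these data known. Each of the 10 symbols Afmid, Kmo, Kynu, Haao, Acmsd, Qprt, Naprt, Nadsyn1, Nampt and Inmt was found among the 20002 genes measured. RNA-seq of whole mouse kidney was available for 2 groups with 1 library each. The CKO library came from mice given AAV9 (adeno-associated virus serotype 9) with shRNA against Regnase-2, an mRNA decay factor encoded by Zc3h12b, and the other library from mice given control AAV9. The label calls the first group a conditional knockout specific to proximal tubules, whereas the methods describe a knockdown by a vector that preferentially enters proximal tubules. The methods describe the control both as an empty vector and as a control shRNA. Vectors went into the tail vein at 11 weeks of age. The sequencing methods give 14-week-old mice and left kidney tissue, whereas the vector methods give harvest at 16 weeks. The sex of the mice, and whether a library was made from 1 mouse or from a pool, are not given in the sources used here.

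The deposited values were whole numbers that did not fall below 35 for the control and 51 for CKO. They were taken as reads plus a constant, and 34 and 50 were subtracted. This left 38851231 control reads and 43588721 CKO reads in all. The libraries were then brought to a common scale with a factor of 0.667 for CKO, taken as the median gene ratio. Differences are log2 ratios of CKO over control on these scaled reads with a pseudocount of 1. With 1 library per group no difference has a replicate check, and the 95% Clopper-Pearson intervals cover counting error only. Zc3h12b, the targeted gene, counted 47 control reads and 59 CKO reads. Its log2 ratio was -0.25 (interval -0.83 to 0.33), and 0.16 with equal library totals. The interval lay on both sides of no change and did not reach 2-fold in either direction. A marked drop of this RNA was therefore not seen in whole kidney, so its reads do not bear out the label. They are few, come from 1 library per group, and measure neither the protein nor proximal tubules alone. Staining of kidney sections for the Regnase-2 protein is described in the methods and is not part of the values used here. The tubular injury genes Lcn2 and Havcr1 counted 28 and 1639 control reads against 3797 and 21332 CKO reads.

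In the kynurenine pathway, tryptophan is opened to formylkynurenine, which Afmid, Kmo, Kynu and Haao convert in turn to an unstable semialdehyde. This product either closes by itself to quinolinate, which Qprt carries into NAD synthesis, or is removed by Acmsd toward oxidation. Naprt starts NAD synthesis from nicotinic acid, Nadsyn1 performs the last amidation for both of these routes, and Nampt is the rate-limiting enzyme of nicotinamide salvage. Inmt methylates tryptamine and related amines with S-adenosylmethionine as the donor. Proximal tubules are a known site of NAD synthesis from tryptophan.

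RefSeq promoter windows, of 250 bases before to 50 bases after a start site on GRCm38.p6, were found for 8 of the 10 genes (not for Kynu and Naprt). The windows of Inmt and Haao are shown because these genes had the lowest log2 ratios of the 10. Capitals mark matches to 2 of the 7 motifs searched on both strands. The Inmt window lies at chr6:55174941-55175240 on the minus strand, and its capitals are the letters TATAAA, which began 80 and 69 bases before the start site. The Haao window lies at chr17:83846741-83847040 on the minus strand, at a start site inside the annotated span of the gene. Its capitals are GTTAAT, a core of HNF1 sites, read on the other strand and beginning 41 bases before the start.
Inmt: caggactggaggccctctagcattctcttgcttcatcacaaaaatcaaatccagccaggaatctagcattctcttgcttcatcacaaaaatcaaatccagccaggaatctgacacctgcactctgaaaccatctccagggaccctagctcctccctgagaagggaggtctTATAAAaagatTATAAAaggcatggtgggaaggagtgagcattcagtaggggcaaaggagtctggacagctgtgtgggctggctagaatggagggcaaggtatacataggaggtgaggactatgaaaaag
Haao: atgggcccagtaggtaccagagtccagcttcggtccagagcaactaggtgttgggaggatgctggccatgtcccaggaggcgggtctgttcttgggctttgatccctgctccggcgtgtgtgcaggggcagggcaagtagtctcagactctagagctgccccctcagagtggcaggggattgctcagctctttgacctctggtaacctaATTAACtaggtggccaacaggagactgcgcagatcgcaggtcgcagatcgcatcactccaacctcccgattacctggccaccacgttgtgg
TATAAA was present in 13.6% of all 32851 windows and GTTAAT in 7.10%, each in 1 of the 8 windows of these genes. The Inmt window also held a stretch of 49 bases that recurred 46 bases downstream, the longest repeat in the 8 windows. The other motifs were CAAAGTCCA (HNF4, in 0.475% of all windows), TGANTCA (AP-1, 7.81%), TTGCGTG (Ahr, 1.16%), and the NF-kB consensus (4.51%) and the interferon response element (0.17%), both with mixed bases. None of these 5 was in the 8 windows, which says only that the letters are not there.

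Of the 10 genes, all of which had at least 10 scaled reads in a library, 3 were at least 2-fold lower in the CKO library, against 5.35% of the 17469 genes that passed this filter. At least 2-fold higher was 1 of the 10, against 13.4% of all genes. These shares over all genes also apply to the counts given below for other lists under the main scaling. By any size, 8 of the 10 were lower, against 48.3%, and their median log2 ratio was -0.77, against 0.02 for all genes. Because the 10 genes were chosen with earlier results of these data known, these comparisons describe them and test nothing. With equal library totals the median of all genes moved to 0.44 and that of the 10 genes to -0.36, with 6 of them lower and 2 at least 2-fold lower. Over all genes, 934 were at least 2-fold lower and 2334 at least 2-fold higher (71.4% of these calls higher), and equal totals gave 437 and 3870 (89.9% higher).

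**Figure D1:**
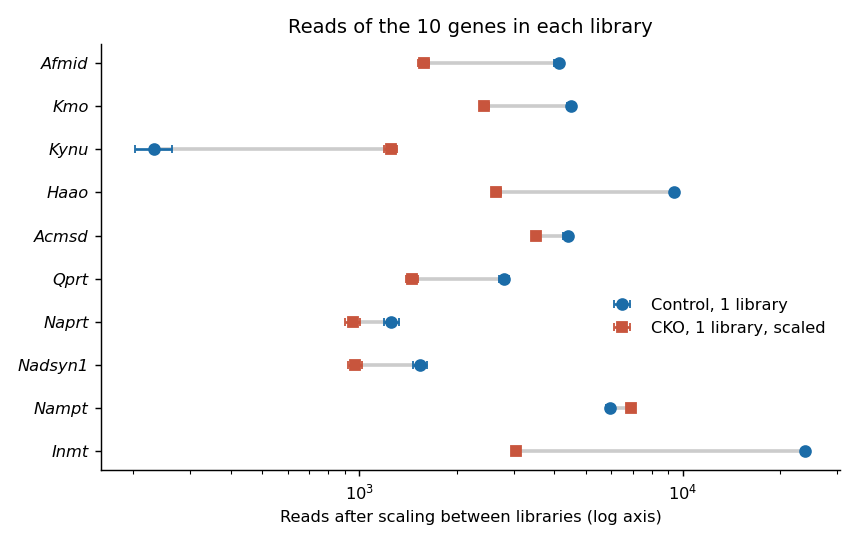
Reads of each gene in the control library (circles) and in the CKO library after scaling (squares), on a log axis, with 95% Poisson intervals that cover counting error only. Inmt went from 23839 control reads to 3052 scaled reads, and Kynu went the other way, from 231 to 1251.

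Inmt showed the lowest ratio of the 10 genes. The gene, at chr6:55170627-55174990 (gene ID 21743), counted 23839 control reads against 4578 CKO reads, or 3052 after scaling. This was 7.81-fold lower (interval 7.57 to 8.06), a log2 ratio of -2.97. Among the 17469 genes, Inmt ranked 41 from the lowest. In reads per kilobase of the longest transcript over the library total (RPKM), it stood at 569.7 in the control, above the other 9 genes, and at 97.5 in the CKO library, with Nampt next at 52.7. With the mean transcript length in place of the longest, Nampt stood above Inmt in the CKO library, at 120.0 against 105.2. The log2 ratio of Inmt stayed negative under each alternative tried, the nearest to 0 being -2.37 with the values as deposited.

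Among 796 other genes whose mean reads lay within 2-fold of those of Inmt, the 5 nearest to it in log2 ratio were Slc7a13, Akr1c14, Angptl7, Hsd17b11 and Slc22a30. Slc7a13, an amino acid transporter known for higher expression in male than female mouse kidney, counted 34059 control and 6624 CKO reads, with a log2 ratio of -2.95. The other 4 lay between -3.17 for Angptl7 and -2.52 for Slc22a30. Akr1c14 and Slc22a30 come from families with several related genes, and the split of reads between alike copies is uncertain. This likeness was read over 2 libraries only. Chosen after values were seen, the Y-linked genes Ddx3y, Eif2s3y, Kdm5d and Uty ranged from 737 to 2129 control reads and from 1263 to 3798 CKO reads. Their log2 ratios ran from -0.04 for Ddx3y to 0.38 for Uty. Male RNA was thus present in both libraries, and whether female RNA was also present was not tested.

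The early enzymes of the kynurenine pathway differed among themselves. Afmid, the formamidase at chr11:117825503-117839908 (gene ID 71562), had 4126 and 2372 reads and was 2.61-fold lower after scaling (interval 2.48 to 2.75). With equal totals its log2 ratio moved from -1.38 to -0.96, short of 2-fold. Its exons share 44.3% of their bases with the overlapping gene model Gm20708 on the same strand, and 83 bases with Tk1 on the other strand. How reads in shared exons were assigned is not given in the sources used here, so the value of Afmid is uncertain. Tk1, a cell cycle gene named for this overlap, had 224 and 493 reads. Kmo, the kynurenine hydroxylase at chr1:175632193-175660853 (gene ID 98256), counted 4498 and 3651 reads, a log2 ratio of -0.89 (interval -0.95 to -0.82).

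Kynu, the kynureninase gene at chr2:43555258-43683048 (gene ID 70789), stood apart from the enzymes before and after it. It counted 231 control reads against 1876 CKO reads, which was 5.41-fold higher after scaling (interval 4.72 to 6.23). Its level per kilobase was the lowest of the 10 genes in the control library, at 2.14 RPKM, and was 15.5 RPKM in the CKO library, above that of Nadsyn1 at 12.7. Kynu ranked 432 from the highest of all genes.

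Beside the higher Kynu value, 12 of 12 macrophage markers were higher and 11 at least 2-fold higher. Their summed reads were 6847 against 55341, and their median log2 ratio was 2.64. Cd74, the most abundant in the control, was at 2.61, Lyz2 was the highest at 3.66 and Csf1r the lowest at 0.51. The fewest control reads of a macrophage marker were 23, for Fcgr1. The part of these cells in the Kynu value was not tested. In whole kidney, a change in the number of cells of a type and a change in RNA per cell cannot be told apart.

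Haao, which closes the sequence, counted 9371 control reads against 3969 CKO reads. At chr17:83831348-83848981 (gene ID 107766), it was 3.54-fold lower after scaling (interval 3.41 to 3.68), a log2 ratio of -1.82 that moved to -1.40 when totals were equal and to -1.23 for the values as deposited. Acmsd, at chr1:127729413-127767564 (gene ID 266645), which diverts the product of Haao, had 4401 and 5270 reads. Its log2 ratio was -0.32 (interval -0.38 to -0.27) and changed sign to 0.09 with equal totals. Of its exon bases, 3.32% lie opposite an antisense gene, 2900009J06Rik. Qprt, at chr7:127107770-127122029 (gene ID 67375), which takes up quinolinate for NAD, counted 2799 and 2177 reads, at -0.95 on the log2 scale (interval -1.03 to -0.87).

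**Figure D2:**
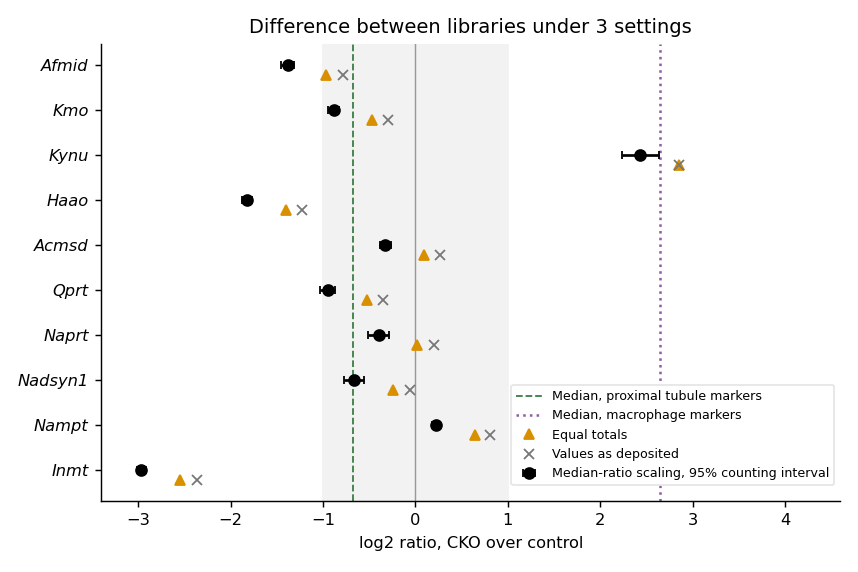
Log2 ratio of CKO over control for each gene, with 95% Clopper-Pearson intervals for the median-ratio scaling (black circles), and under equal totals (triangles) or unscaled as deposited (crosses). The shaded band is less than 2-fold, and Acmsd and Naprt lie on opposite sides of 0 under different settings.

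Ratios of a pair of genes within a library need no scaling between libraries. Reads of Haao were 2.13 times those of Acmsd in the control and 0.753 times in the CKO library, a log2 change of -1.50 (exact 95% interval of the odds ratio -1.58 to -1.42). Qprt moved the same way against Acmsd, from 0.636 to 0.413 times, a log2 change of -0.62 (interval -0.72 to -0.52). Aadat, an aminotransferase that forms kynurenate from kynurenine, had 10637 and 6917 reads. Against Aadat, Kmo moved by 0.32 (interval 0.24 to 0.40) and Kynu by 3.64 (interval 3.44 to 3.85).

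Outside the tryptophan steps, Nampt, the salvage enzyme at chr12:32820335-32853369 (gene ID 59027), counted 5945 control reads against 10393 CKO reads, a log2 ratio of 0.22 (interval 0.17 to 0.27) and of 0.64 with equal totals. Naprt, at chr15:75890963-75894481 (gene ID 223646), counted 1255 and 1428 reads, at -0.40 on the log2 scale, which changed sign to 0.02 with equal totals. Its exons share 11.8% of their bases with Eef1d on the same strand, so its value carries the same doubt as that of Afmid. Nadsyn1, at chr7:143795589-143822862 (gene ID 78914), counted 1537 and 1456 reads, at -0.66 on the log2 scale (interval -0.77 to -0.56), and -0.24 with equal totals. Within the libraries, Nampt moved up by 1.17 against Qprt (interval 1.08 to 1.26) and by 0.62 against Naprt (interval 0.50 to 0.74).

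**Figure D3:**
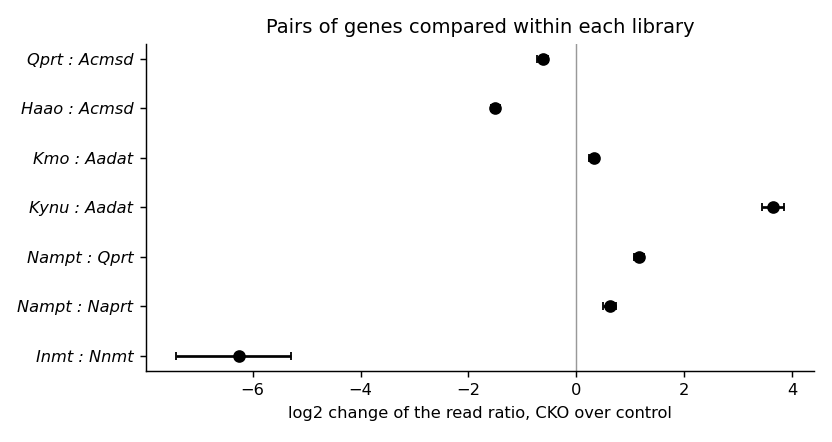
Log2 change, CKO over control, of the ratio of reads of the first gene to those of the second within each library, with exact 95% intervals for counting error. Haao and Qprt lie below 0 against Acmsd, and Nampt lies above 0 against Qprt and Naprt.

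The order of levels per kilobase in the control library was Inmt, Haao, Afmid, Acmsd, Qprt, Nampt, Kmo, Naprt, Nadsyn1 and Kynu, and the counting intervals overlapped only for Qprt and Nampt among neighbours, at 35.1 and 33.8. In the CKO library it was Inmt, Nampt, Acmsd, Haao, Qprt, Afmid, Kmo, Naprt, Kynu and Nadsyn1. There the intervals overlapped for Qprt with Afmid and for Afmid with Kmo, at 24.4, 23.4 and 22.8. The order depended on the transcript length used. With mean lengths, Acmsd took the seventh place in the control library and Nampt the fourth.

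Many of these enzymes are known from proximal tubule cells. Of 12 markers of these cells, 10 were lower under the main scaling, 2 of them by 2-fold or more, and the median log2 ratio was -0.68. With equal totals 9 were lower, none by 2-fold, and the median was -0.26, and without scaling 7 were lower, again none by 2-fold, and the median was -0.09. In both of these settings Slc13a1 was at least 2-fold higher. Their summed reads were 573090 against 515865, or 343910 after scaling. Slc34a1, the most abundant, was the lowest at -1.17, and Slc13a1 was the highest at 0.73. Set against the median under the main scaling, Inmt lay lower by a log2 difference of -2.29, Haao by -1.15 and Afmid by -0.70. Qprt, Kmo and Nadsyn1 lay at -0.27, -0.21 and 0.02, and Naprt, Acmsd, Nampt and Kynu above the median, at 0.28, 0.35, 0.90 and 3.11. The part of the proximal tubule markers' shift in these results was not tested.

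Markers of other cells gave further values. The 12 markers of other nephron segments had a median of -0.03. Aqp2 was the highest at 0.79, and Umod, the most abundant, was at 0.47. The 5 endothelial markers had a median of -0.10, from -0.67 for Kdr to 0.14 for Emcn. Both medians were above 0 with equal totals, at 0.39 and 0.32. The 4 fibroblast markers had a median of 1.36, from 0.48 for Pdgfrb to 2.65 for Col1a1, with 3 at least 2-fold higher. Neutrophil and T cell markers rested on few reads, 42 and 34 in sum in the control against 260 and 205. Their medians were 1.64 and 1.85, with Csf3r at 2.37 and S100a8 at 0.77, and Cd3g at 2.22 and Nkg7 at 1.09. Of the hepatocyte markers, which kidney also expresses, Ttr had the most control reads and was at -2.33, Apob was at -2.35 and Alb at -0.53, which changed sign to 0.05 without scaling and to 0.18 with the values as deposited.

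**Figure D4:**
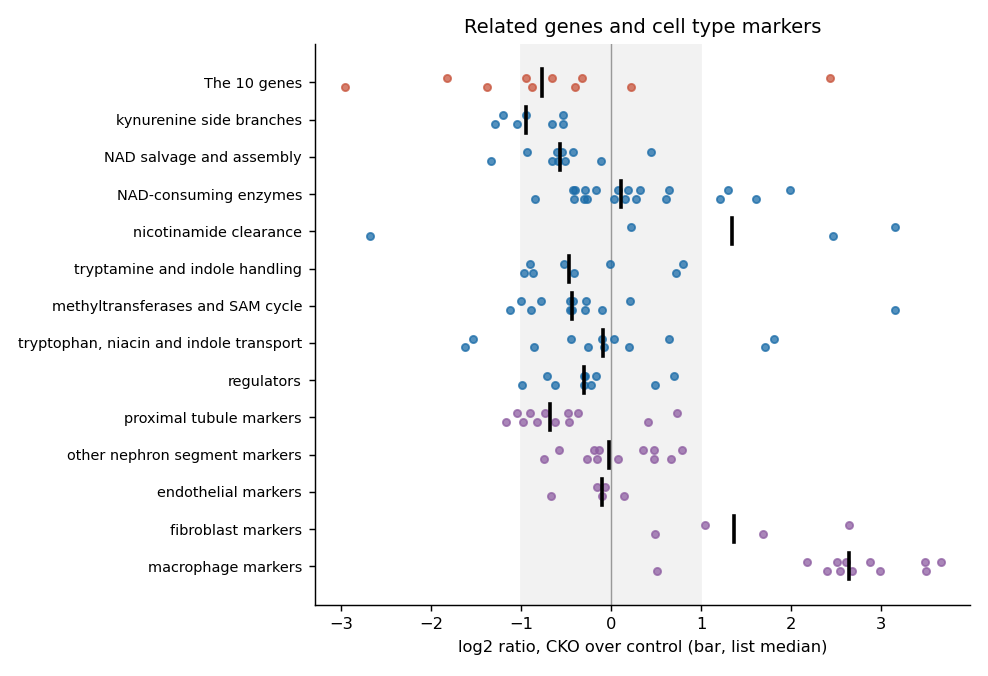
Log2 ratio of CKO over control for each measured gene (points) of the 10 genes, of related lists and of marker lists, with the median of each list as a bar and the band of less than 2-fold shaded. The 7 side-branch genes lie below 0 under this scaling (Got2 and Kyat3 above 0 without scaling), and macrophage markers have a median of 2.64.

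Around the 10 genes, the side branches of the pathway were lower throughout under the main scaling. All 7 side-branch genes were lower, 3 at least 2-fold, with a median of -0.95. With equal totals all 7 were still below 0 but none reached 2-fold, and the median was -0.53, or -0.36 without scaling. Kyat1, a further kynurenine aminotransferase, was the lowest at -1.29, followed by Aadat at -1.21 and Aldh8a1, a dehydrogenase downstream of Acmsd, at -1.05. Gcdh, of the glutaryl-CoA step, was at -0.95, Dhtkd1 at -0.65, Kyat3 at -0.54 and Got2 at -0.54. Got2 and Kyat3 changed sign without scaling. Of the enzymes that open tryptophan, Ido2 counted 472 and 218 reads, at -1.69 on the log2 scale. Ido1 and Tdo2 were not analysed here.

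Of 10 measured genes of NAD salvage and assembly, 9 were lower, 1 of them by 2-fold or more, and the median was -0.57. Nt5e, the ectonucleotidase CD73, had 6667 and 3972 reads and was the lowest at -1.33, or -0.91 and short of 2-fold with equal totals, while Nmrk1, a nicotinamide riboside kinase, was the highest at 0.44. Nmnat1, Nmnat2 and Nmnat3, which join the nucleotide to its adenylate, were at -0.51, -0.94 and -0.11. Nmnat2 had only 15 and 11 reads and an interval from -2.30 to 0.19. The NAD kinases Nadk and Nadk2 were at -0.59 and -0.65, Pnp at -0.61, the transhydrogenase Nnt at -0.54 and the mitochondrial NAD carrier Slc25a51 at -0.43. The median of this list was 0.02 without scaling, so its direction depends on that step, and Nmnat3 was at 0.30 with equal totals.

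Of 20 enzymes that consume NAD, 8 were lower and 12 higher under the main scaling, with a median of 0.11, but 2 were lower and 18 higher with equal totals, with a median of 0.53, and 0.70 without scaling. At least 2-fold higher were 4 of the 20, against 13.4% of all genes. With equal totals 5 were, against 3870 of the 17682 genes kept in that setting. Both counts lie near the share over all genes. Parp14, a mono-ADP-ribosyltransferase, was the highest, at 1.99 from 464 control and 2764 CKO reads. The other 3 at least 2-fold higher, named after their values were seen, were Bst1 at 1.61, Parp9 at 1.30 and Parp12 at 1.20. Sirt3, a mitochondrial deacetylase, had the most reads in the control and the lowest ratio, at -0.85.

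The genes that clear nicotinamide had few reads in the control library apart from Cyp2e1. Nnmt, the methyltransferase for nicotinamide, counted 9 control reads against 132 CKO reads, a log2 ratio of 3.15 (interval 2.32 to 4.45). Aox1, an oxidase of the methylated product, had 14 and 123 reads and was at 2.47, and Aox3 had 28 and 49 reads and was at 0.22. Cyp2e1 had 95086 and 22185 reads and was at -2.68. Reads of Inmt were 2649 times those of Nnmt in the control and 34.7 times in the CKO library, a log2 change of -6.26 (interval -7.42 to -5.29). With the values as deposited this change was -4.45, because the constant is large beside the 9 reads of Nnmt.

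Genes with chemistry related to that of Inmt were read in the same way. Of 13 measured small-molecule methyltransferases and genes of the S-adenosylmethionine cycle, 11 were lower, 2 of them by 2-fold or more, and the median was -0.44, whereas 8 were lower with equal totals and none by 2-fold. Gnmt, the glycine methyltransferase, was the lowest at -1.13, Mat2a, with the most control reads, was at -0.44, and Nnmt was the highest. Of 8 genes of tryptamine and indole handling that passed the filter, 6 were lower and none reached 2-fold, with a median of -0.47, whereas with equal totals 4 were lower and 2 at least 2-fold higher. Aldh9a1 was the lowest at -0.97, Aldh2 had the most reads and was at -0.52, and Maoa, which oxidises monoamines, was the highest at 0.80. The medians of both lists were above 0 without scaling, at 0.14 and 0.17.

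Among 12 transporters of tryptophan, niacin or indoles, 2 were at least 2-fold lower and 2 at least 2-fold higher, with a median of -0.09, while equal totals gave 2 and 3 such genes and a median of 0.33. Slc22a6, the organic anion transporter OAT1, had 50329 and 24475 reads and was the lowest at -1.62. Slc7a5, which carries large neutral amino acids, had 53 and 283 reads and was the highest at 1.81. Cltrn, the partner of the neutral amino acid transporter Slc6a19, had the most reads and was at -0.86. Of 10 regulators that passed the filter, 8 were lower and none reached 2-fold, with a median of -0.30, whereas with equal totals 3 were lower, the median was 0.12 and Ahr was past 2-fold. Hnf4a, a transcription factor of proximal tubule cells, had the most reads and the lowest ratio, at -0.99, and Ahr, a receptor for kynurenine and indoles, was the highest at 0.69.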

How the data were processed

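Whole-kidney RNA-seq of 1 control and 1 CKO library was used. Libraries were made with a stranded mRNA kit. The authors used STAR 2.7.3a for alignment, HTSeq for counting, DESeq2 for normalization and Cufflinks 2.2.1 for expression levels. The submitters' processing notes name mm10 and also edgeR. Which of these tools made the deposited values was not established here. The values the authors deposited were treated as a score, since they are whole numbers called normalized counts with a different lowest value in each library. Reading them as reads plus a constant is inferred, not stated by a source.

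The column minimum minus 1 was subtracted, CKO reads were multiplied by the median gene ratio, and log2((CKO + 1)/(control + 1)) was taken. Genes with at least 10 scaled reads in a library were kept, and 2-fold was the threshold. No test between groups was made. Lengths were those of the longest transcript under each symbol in GENCODE M21, found for 89.1% of genes. Coordinates and promoters came from RefSeq on GRCm38.p6, and the motifs were chosen after the values were seen. The steps were tested on simulated data. Scripts ran in Python 3.11.15 with scipy 1.17.1, pandas 2.3.3 and numpy 2.4.6.

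The members and lists were chosen with earlier results of these data known. Named genes were the 10 genes, every gene of the tryptophan entry, side-branch, salvage, clearance and injury lists, the highest, lowest and most abundant gene of each other list, genes of the pairs and the 5 genes most like Inmt. A gene covered by this rule is left unreported. Nmrk2, Aanat, Asmt, Il4i1, Pnmt, Mat1a, Retnlg and Cps1 were not analysed here, nor was the pair of Ido1 and Tdo2. Alternatives were other scalings, floors, pseudocounts, filters and thresholds and the mean transcript length.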

Additional observations from a re-analysis of the deposited data

How the results depend on the processing

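No paired analysis was possible because there was only 1 library in either group. The number of genes at least 2-fold lower went from 934 to 437 with equal totals, 338 without scaling, 131 with the values as deposited and 617 with a minimum of 50 reads. At 1.5-fold and 4-fold the numbers were 2423 and 166, as the thresholds themselves bring about. The number at least 2-fold higher went from 2334 to 3870, 4944 and 3574 under the first 3 of these, and to 3801 and 749 with the thresholds. The share of these calls that were higher, 71.4% in the main setting, was 89.9%, 93.6% and 96.5% under those 3 settings. Of the 10 genes, 6 were lower by 1.5-fold and 1 by 4-fold, against 3 by 2-fold. Their median of -0.77 moved to -0.36 with equal totals, -0.19 without scaling and -0.18 with the values as deposited, which keep the constants and are not scaled.

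Each of these 3 settings took the log2 ratio of Acmsd and Naprt above 0. Acmsd was at 0.09, 0.26 and 0.26, and Naprt at 0.02, 0.19 and 0.20. The signs of the other 8 genes held under every alternative. A scaling added after the data were seen, the median ratio of genes with at least 100 reads in both libraries, gave a factor of 0.692 in place of 0.667 and a median of -0.72 for the 10 genes. Within-library pairs stayed inside their intervals with the column minimum subtracted and with the values as deposited, except Inmt against Nnmt in the latter. Levels per kilobase of all 10 genes in the control moved with the mean transcript length. Depth limits genes with few reads, such as Nnmt, Nmnat2 and Zc3h12b.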
